A study of Rattus norvegicus with 16 samples.

Results

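Whole brain and whole heart were compared for their microRNAs (miRNAs) in 4 small RNA libraries, taken by tissue label from the 16 libraries of the study. The 4 libraries came from adult male rats of 2 inbred strains, BN-Lx (a Brown Norway strain with the polydactyly-luxate syndrome) and SHR (the spontaneously hypertensive rat). No treatment was given in the labels. Tissues were frozen in liquid nitrogen, and the small RNA fraction was sequenced on the SOLiD platform. Brain and heart of a strain came from the same rat, so each tissue had 2 libraries, 1 per strain, and strain and individual rat cannot be told apart. Reads were summed per arm of each miRNA hairpin: 611 arms of 349 hairpins had reads in the 4 libraries, out of 694 arms of 387 hairpins in all 6 tissues. Both tissues were sampled whole, with their vessels, blood and connective tissue.

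A miRNA is cut from one arm (5p or 3p) of an RNA hairpin and loaded into an Argonaute protein, which it guides to messenger RNAs. Most of the pairing to a target runs through the seed, bases 2 to 8 of the miRNA, so miRNAs with one seed share many targets. Neurons and cardiac muscle cells are both electrically excitable and, in the adult, mostly no longer divide, yet each is known for its own set of miRNAs: miR-124, miR-9, miR-128, miR-132 and miR-138 in neurons, and miR-1, miR-133, miR-208 and miR-499 in cardiac muscle. MiR-219 and miR-338 mark the myelinating oligodendrocytes, and a large imprinted cluster between Dlk1 and Meg3 is known for its expression in brain.

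The mature sequences on which the comparison turned are given 5′ to 3′ as RefSeq lists them (assembly GRCr8), with the seed in capitals. RefSeq matched 42 of the 43 miRNA names looked for; miR-124 is named only. The first set holds the leading miRNAs of brain. MiR-132-3p and miR-212-3p share a seed and sit next to each other on chromosome 10.
miR-128-3p: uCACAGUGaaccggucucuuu
miR-138-5p: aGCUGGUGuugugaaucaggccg
miR-218a-5p: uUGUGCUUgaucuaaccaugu
miR-9a-3p: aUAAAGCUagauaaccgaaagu
miR-132-3p: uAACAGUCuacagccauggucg
miR-212-3p: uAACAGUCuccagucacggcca
miR-219a-2-3p: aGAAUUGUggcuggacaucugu
miR-487b-3p: aAUCGUACagggucauccacuu

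The second set holds the miRNAs of striated muscle. It is shown because miR-1-3p and miR-206-3p carry the same seed but were called higher in different tissues. For miR-206-3p that call rests on few reads (60 and 20 in brain). Further, miR-133a-3p and miR-133b-3p differ only by G22A (the base of miR-133a-3p, its position from the 5′ end, and the base of miR-133b-3p).
miR-1-3p: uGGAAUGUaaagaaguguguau
miR-206-3p: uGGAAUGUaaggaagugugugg
miR-133a-3p: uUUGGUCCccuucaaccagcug
miR-133b-3p: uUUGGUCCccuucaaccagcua
miR-208a-5p: gAGCUUUUggcccggguuauac
miR-499-5p: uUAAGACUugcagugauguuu

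The third set holds miRNAs abundant in both tissues. The miR-29 members and the miR-23 members were each grouped by their shared seed, as were miR-125a-5p and miR-125b-5p.
miR-29a-3p: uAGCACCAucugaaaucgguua
miR-29b-3p: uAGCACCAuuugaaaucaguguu
miR-29c-3p: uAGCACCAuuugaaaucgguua
miR-23a-3p: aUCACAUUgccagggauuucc
miR-23b-3p: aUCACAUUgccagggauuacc
miR-24-3p: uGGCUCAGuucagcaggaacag
miR-125a-5p: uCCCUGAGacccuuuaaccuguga
miR-125b-5p: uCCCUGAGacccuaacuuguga
miR-145-5p: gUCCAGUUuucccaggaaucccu

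The brain libraries held 1064894 reads (BN-Lx) and 860468 reads (SHR), and the heart libraries 403453 and 630467. Reads were spread over more arms in brain: 563 and 533 arms had reads there, against 409 and 424 in heart. The 10 most abundant arms took 40.9 and 41.3% of the reads in brain and 54.5 and 54.7% in heart. This unequal make-up matters for scaling. Levels are therefore given as RPM, the reads of an arm scaled to a library of 1000000 reads, while fold changes come from edgeR with TMM factors, which set aside the arms that differ most. The TMM log2 fold changes of brain over heart lay a median of 1.23 below those scaled to total reads, and the median over all arms tested was 0.62 with TMM and 1.85 with total reads. An arm was called here only where it passed an adjusted p of 0.05 in the same direction under all 4 scalings tried (TMM, RLE, the outlier-corrected mean of the study's methods, and total reads).

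Of 392 arms with enough reads to test, 150 were higher in brain (38.3% of those tested) and 66 were higher in heart (16.8%) under all 4 scalings. With TMM alone the numbers were 150 (38.3%) and 109 (27.8%). Of these TMM calls, 43 in heart and none in brain were lost under another scaling. The other scalings called more arms in brain, 181 with RLE factors, 194 with the outlier-corrected mean and 204 with total reads. No arm was called in opposite directions under any pair of scalings, although 57 arms changed sign between TMM and total reads. By size alone, without a test, 223 of 611 arms (36.5%) were at least 5-fold higher in brain in both strains, and 42 (6.87%) at least 5-fold higher in heart. Of these, 147 and 31 were also called.

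**Figure D1:**
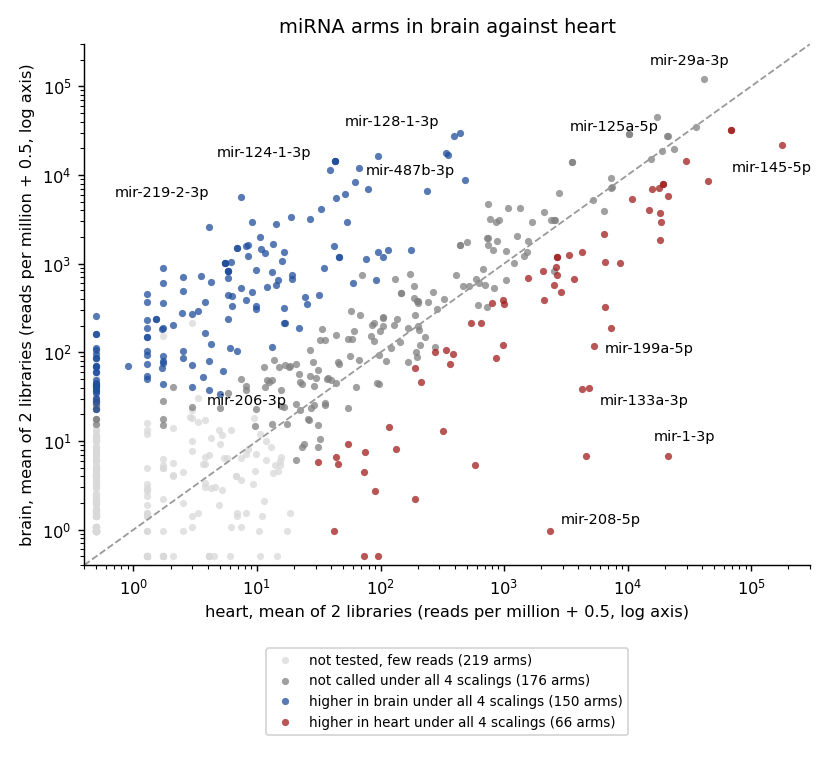
Mean RPM of the 2 brain libraries (y axis) against the 2 heart libraries (x axis) for the 611 arms, on log axes with 0.5 added, where each point is an arm, colours give the call under all 4 scalings and the dashed line marks equal RPM. The brain-high arms form a cloud far above the line, most of them near 0 in heart, while the heart-high arms run from a few with hardly a read in brain (mir-1-3p, mir-208-5p) to abundant arms close to the line.

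In brain the most abundant arm was mir-29a-3p, with 11.1 and 12.8% of the reads, followed by mir-29c-3p (4.08 and 4.92%), mir-125a-5p (4.32 and 2.57%) and the 2 mir-24 hairpins, whose identical 3p arms had 3.28 and 3.22% each. In heart it was mir-145-5p, with 18.6 and 17.1%, followed by the mir-24 arms (6.82 and 7.04% each), mir-23a-3p (4.49 and 4.54%) and mir-29a-3p (3.51 and 4.82%). The first places were thus held by miRNAs found in many tissues or by a smooth muscle miRNA, not by the marker of the organ's main cell type. The arms of the neuron list (23 hairpins) took 18.5 and 22.7% of the brain reads and 0.268 and 0.255% of the heart reads. The arms of the striated muscle list (7 hairpins) took 3.32 and 4.34% of the heart reads and 0.0173 and 0.0106% of the brain reads.

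**Figure D2:**
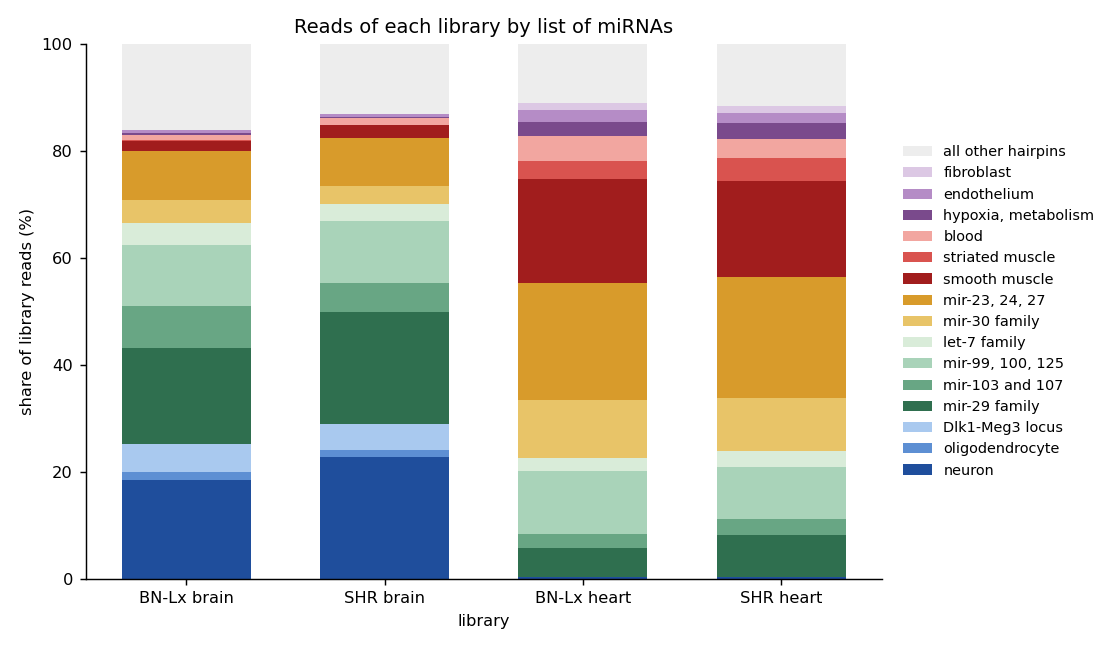
Share of the reads of each library (y axis, percent) held by 15 lists of hairpins that do not overlap, with all other hairpins in pale grey. Neuron hairpins fill 18.5 and 22.7% of the brain bars and are too thin to see in heart, where mir-143 and mir-145 (smooth muscle) and mir-23, 24 and 27 fill 41.3 and 40.6% together.

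Most neuronal miRNAs were higher in brain. Of 43 arms tested from the neuron list, 39 were higher in brain (38.3% over all arms tested), none was higher in heart and 4 did not pass. The median log2 fold change was 6.27 (0.62 over all arms tested). Rarer arms of the list had few or no reads in heart and passed the read filter through brain. Those with no read in heart could only be called higher in brain or not at all. Paralogous hairpins such as mir-124-1, -2 and -3 yield one mature sequence, and the authors divided the reads evenly, so their values are not separate measurements. In bulk tissue, fewer cells of a type and less RNA per cell cannot be told apart.

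Mir-124, the classic neuronal miRNA that represses non-neuronal transcripts, had 7450 and 21409 RPM in brain (mir-124-1-3p, BN-Lx then SHR) and 76.8 and 8.46 RPM in heart. Both brain libraries stood far above both heart libraries, but the strains differed within each tissue, and in opposite senses. The ratio of the pooled RPM was 390 and the log2 fold change 7.60 ± 1.08 (SE; edgeR, adjusted p = 1.9e-05). Mir-128-1-3p, which restrains neuronal excitability, was the most abundant arm of the list, with 29285 and 30569 RPM in brain and 397 and 485 RPM in heart. These 4 values were close within each tissue, and the log2 fold change was 4.85 ± 0.48 (edgeR, adjusted p = 8.49e-07). The hairpin lies within the RefSeq span of R3hdm1, and its paralogue mir-128-2 within that of Arpp21.

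Mir-138-1-5p, which limits the growth of dendritic spines, had 17285 and 15611 RPM in brain and 109 and 82.5 RPM in heart, a log2 fold change of 6.22 ± 0.54. Mir-218-2-5p, whose hairpin lies within the span of the axon guidance gene Slit3, had 17371 and 17774 RPM in brain and 350 and 332 RPM in heart (4.46 ± 0.46). Mir-129-2-3p had 8320 and 14470 RPM in brain and 34.7 and 42.8 RPM in heart (6.95 ± 0.69). For each of these arms the lowest brain library lay at least 1 order of magnitude above the highest heart library. Mir-132-3p, induced by neuronal activity through CREB, had 6560 and 5568 RPM in brain against 44.6 and 57.1 RPM in heart (5.63 ± 0.62). Its neighbour with the same seed, mir-212-3p, was rarer, with 262 and 134 reads in brain and 0 and 2 reads in heart, with a 95% counting interval of the ratio from 29.2 to 881. The largest adjusted p of these 5 arms was 0.000969 (edgeR, mir-212-3p).

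The remaining neuronal miRNAs followed. Mir-135a-5p had 5094 and 5838 RPM in brain and 44.6 and 41.2 RPM in heart. Mir-9-1 gave reads from both arms, 1739 and 1243 RPM of 3p and 1103 and 532 RPM of 5p in brain, against at most 8.68 RPM in heart. Mir-9 acts in neural progenitors as well as in neurons, and its 3p arm was the more abundant in each brain library. Mir-137-3p (335 and 349 reads in brain), mir-383-5p (491 and 377) and mir-153-3p (187 and 170) were near 0 in heart, with 1 read each over both heart libraries. Their ratios of brain to heart were 367 (65.7 to 14500), 466 (83.4 to 18400) and 192 (34.2 to 7590). Of the arms with no read in heart, mir-129-1-3p was at least 55.3-fold and mir-153-5p at least 37.8-fold higher in brain, taking 3 reads per tissue as the floor, and mir-7a-2-3p had 62 and 256 RPM in brain. The arms that did not pass were mir-7a-1-3p and 3 arms with at most 37.2 RPM in any library.

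**Figure D3:**
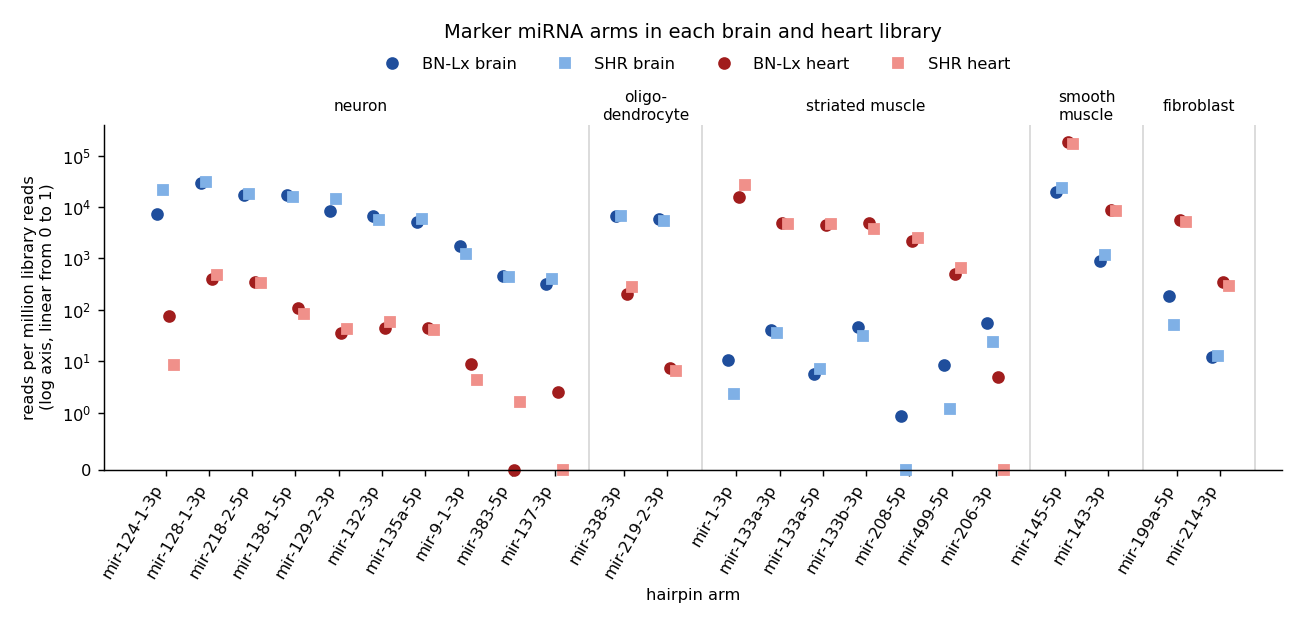
RPM (y axis, log scale, linear from 0 to 1) of marker arms in each of the 4 libraries, grouped by the cell type they mark, where circles are BN-Lx, squares SHR, blue brain and red heart. Brain and heart points do not overlap for any arm shown, and mir-206-3p is the one striated muscle arm with its brain points on top.

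Oligodendrocyte miRNAs were all higher in brain, 5 of 5 arms tested (38.3% over all arms tested), with a median log2 fold change of 3.98. The mir-219 arms had few or no reads in heart and passed the read filter through brain. Mir-219-2-3p, which promotes the maturation of oligodendrocytes, had 5892 and 5317 RPM in brain and 7.44 and 6.34 RPM in heart, that is 3 and 4 reads. Its log2 fold change was 8.40 ± 0.67 (edgeR, adjusted p = 1.35e-07), among the 10 largest brain-high changes of arms with at least 100 reads in both brain libraries. Mir-338-3p, whose hairpin lies within the span of the neural kinase gene Aatk, had 6630 and 6624 RPM in brain and 203 and 274 RPM in heart (3.58 ± 0.49). The hearts thus held both neuronal and glial arms at a low level, and the ratio of the 2 tissues ranged from 26.9 (mir-338-3p) to 832 (mir-219-2-3p) within this list alone.

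The Dlk1-Meg3 locus gave the largest number of brain-high arms. All 46 hairpins of the list had reads, 68 arms were tested, and 62 were higher in brain (38.3% over all arms tested), none in heart. The median log2 fold change was 5.61 (0.62 over all arms tested). Many of these arms had few or no reads in heart and passed the read filter through brain. Together the hairpins of the list made up 5.3 and 4.94% of the brain reads and 0.0766 and 0.0462% of the heart reads. The most abundant arm was mir-487b-3p, with 8851 and 7933 RPM in brain and 62 and 60.3 RPM in heart (5.86 ± 0.54). Mir-434-3p followed with 6699 and 7236 RPM against 94.2 and 61.9 RPM (5.29 ± 0.63), and mir-323-3p with 4165 and 4081 RPM against 39.7 and 25.4 RPM (5.75 ± 0.68). These 3 arms hardly differed between the strains in brain. Mir-127-3p, whose hairpin lies within the span of the imprinted gene Rtl1, to which it is antisense, had 1345 and 1601 RPM in brain and 17.4 and 3.17 RPM in heart. RefSeq places the hairpins Mir127 and Mir487b 234436 bases apart on chromosome 6.

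The locus was not uniform. At one end of the range, mir-543-3p had 1042 and 677 reads in brain and 1 and 0 in heart (ratio 923, 165 to 36500), and mir-341-3p had 717 and 451 reads in brain and 1 and 0 in heart (ratio 627, 112 to 24800). At the other end, mir-494-3p had 765 and 550 RPM in brain and still 106.6 and 76.1 RPM in heart, a log2 fold change of 1.60 ± 0.57 (edgeR, adjusted p = 0.0219). This call was lost whichever of the 4 libraries was left out, with adjusted p from 0.0613 to 0.225 in edgeR. Mir-494-3p was the locus's most abundant arm in both heart libraries, ahead of mir-487b-3p and mir-434-3p. The 6 arms that did not pass had at most 42.3 RPM in any library.

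Among the 10 largest brain-high changes outside these lists were mir-873-5p and mir-551b-3p. Mir-873-5p, within the span of the neuronal gene Lingo2, had 239.5 and 280.1 RPM in brain and no read in heart, and was at least 88.8-fold higher in brain. Mir-551b-3p had 2056 and 3118 RPM in brain and 1 and 3 reads in heart, a ratio of 654. Both were high in each brain library without overlap.

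The endothelial list split. Mir-126, made from an intron of Egfl7 and the best known endothelial miRNA, was higher in heart: its 3p arm had 3405 and 4128 RPM in brain and 20600 and 16196 RPM in heart, a log2 fold change of -3.51 ± 0.37. Mir-221-3p and mir-222-3p, a pair with the seed GCUACAU whose hairpins start 561 bases apart on the X chromosome, were higher in brain. Mir-221-3p had 661 and 434 RPM in brain and 7.44 and 15.9 RPM in heart (4.19 ± 0.94), and mir-222-3p had 857 and 945 RPM against 9.91 and 58.7 RPM (3.54 ± 0.89, edgeR, adjusted p = 0.00278; 2.64 and adjusted p = 0.0502 without the BN-Lx heart). Both are made by many cell types besides endothelium, and their levels went against that of mir-126 in each strain.

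Striated muscle miRNAs showed the widest differences of the whole comparison. Of 9 arms tested, 8 were higher in heart (16.8% over all arms tested) and 1, mir-206-3p, was higher in brain. Arms with hardly a read in brain, such as mir-1-5p and mir-208-5p, passed the read filter through heart. The median log2 fold change of the 9 arms was -8.20. Mir-1-3p, which controls ion channels and proliferation in the heart, had 10.3 and 2.32 RPM in brain (11 and 2 reads) and 15895 and 26633 RPM in heart. Its log2 fold change of -12.79 ± 0.97 (edgeR, adjusted p = 1.35e-07) was the largest among the arms with at least 100 reads in both libraries of the higher tissue. Mir-208-5p, from the hairpin within the span of the cardiac myosin gene Myh6, had 2216 and 2501 RPM in heart and 1 read in the 2 brain libraries together. The ratio of heart to brain was 4600 (95% counting interval 825 to 182000).

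Mir-133a gave reads from both arms. The 3p arm had 41.3 and 36 RPM in brain and 4982 and 4779 RPM in heart, a log2 fold change of -8.20 ± 0.64. The 5p arm had 5.63 and 6.97 RPM in brain and 4469 and 4777 RPM in heart, a log2 fold change of -10.69 ± 0.91. In heart the arms were nearly equal, whereas in brain the 3p arm outnumbered the 5p arm. Mir-133b-3p had 47 and 30.2 RPM in brain and 4791 and 3765 RPM in heart (-8.02 ± 0.66). Reads of miR-133a-3p and miR-133b-3p that end before the last base match both hairpins and were divided between them. Reads that reached the last base numbered 442 and 1150 for mir-133a and 366 and 510 for mir-133b in heart, so both were present there. Mir-499-5p, from the hairpin within the span of Myh7b, had 8.45 and 1.16 RPM in brain and 501 and 663 RPM in heart (-7.88 ± 0.93). Mir-1-5p, the passenger arm, had no read in brain and was at least 60.8-fold higher in heart.

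Mir-206-3p, the skeletal muscle relative of miR-1, ran the other way. It had 60 and 20 reads in brain and 2 and 0 reads in heart, a ratio of brain to heart of 21.5 (5.76 to 180) and a log2 fold change of 2.88 ± 1.17 (edgeR, adjusted p = 0.0417). The call rests on few reads and was lost in 5 of 14 alternative fits, among them those without the BN-Lx brain (edgeR, adjusted p = 0.159), the SHR brain (0.089) or the SHR heart (0.297). Its hairpin starts 3885 bases from that of mir-133b on chromosome 9, and RefSeq places both within the span of one long non-coding RNA, yet mir-133b was higher in heart by 2 orders of magnitude. In the other 4 tissues mir-206-3p ranged from 0 (BN-Lx testis) to 89.7 RPM (BN-Lx liver).

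Read starts of the muscle miRNAs differed in how precise they were. In heart, 97 and 97.1% of mir-1-3p reads began at base 54 of the hairpin and 99.1 and 99.6% of mir-208-5p reads at base 15. Mir-133a-3p began at base 52, the RefSeq start, in 48.1 and 40.5% of reads and at base 53 in 46.8 and 54.1%. Mir-133b-3p was divided in the same way, 57.1 and 51.9% at base 48 and 39.5 and 44.1% at base 49. A start 1 base later moves the seed by 1 base, so about as many miR-133 reads in heart carried the shifted seed as the RefSeq one. In brain, mir-124-1-3p began at base 53 in 93.8 and 95.4% of reads.

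Smooth muscle, fibroblast and blood cell markers were also mostly higher in heart, where 16.8% of all arms tested were higher. The endothelial list was split, as given above. Smooth muscle hairpins mir-143 and mir-145, which start 1366 bases apart within the span of the long non-coding RNA Carmn, took 19.4 and 18% of the heart reads and 2.03 and 2.5% of the brain reads, and 3 of 3 arms tested were higher in heart. Mir-145-5p had 19426 and 23844 RPM in brain and 185628 and 171422 RPM in heart, a log2 fold change of -4.25 ± 0.31 (edgeR, adjusted p = 1.35e-07). In the other 4 tissues it ranged from 37316 (SHR liver) to 136086 RPM (BN-Lx testis), so brain was the lowest tissue. Mir-143-3p had 890 and 1154 RPM in brain and 8720 and 8535 RPM in heart (-4.29 ± 0.43).

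Fibroblast hairpins mir-199a and mir-214 had 3 of 3 arms higher in heart, with a median log2 fold change of -5.87 and 1.21 and 1.25% of the heart reads (0.0492 and 0.0416% in brain). Mir-199a-5p, which also acts in cardiac muscle cells under low oxygen, had 186 and 51.1 RPM in brain and 5532 and 5191 RPM in heart (-6.85 ± 0.60). Blood cell hairpins took 4.83 and 3.48% of the heart reads and 0.989 and 1.23% of the brain reads, and 5 of 6 arms tested were higher in heart. Mir-451-5p of red cells had 2015 and 3947 RPM in brain and 25205 and 12266 RPM in heart. Mir-223-3p of granulocytes had 933 and 1130 RPM in brain and 5465 and 7574 RPM in heart. No hairpin of these lists was at 0 in all 4 libraries. The summed share of each of the smooth muscle, fibroblast and blood lists was higher in both heart libraries than in both brain libraries, and the part of vessels, connective tissue and retained blood in the other heart-high arms was not tested.

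**Figure D4:**
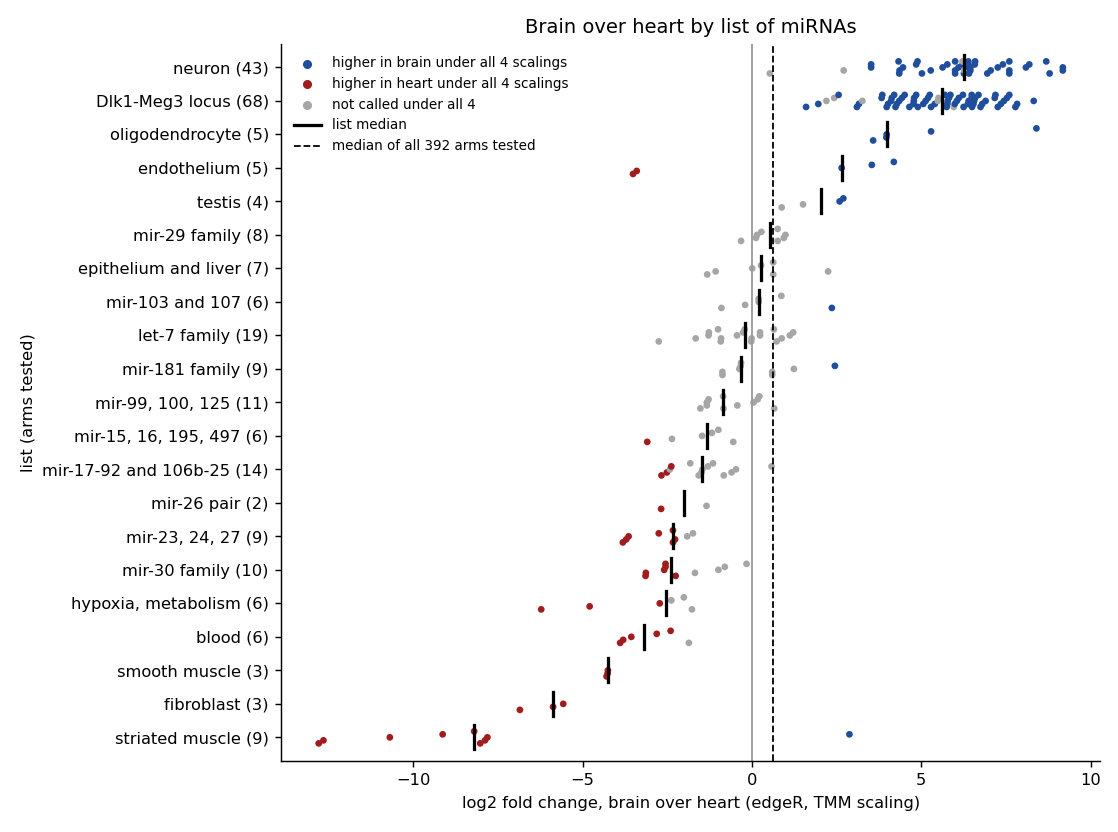
Log2 fold change of brain over heart (x axis; edgeR, TMM) of each arm tested, by list (y axis, with the number of arms), where blue and red arms were called under all 4 scalings, black bars are list medians and the dashed line is the median of all 392 arms. Neuron and Dlk1-Meg3 arms lie on the right, the 8 heart-high striated muscle arms between -12.79 and -7.81 with mir-206-3p at 2.88, and the medians of the broadly expressed families between -2.40 (mir-30) and 0.52 (mir-29).

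Broadly expressed families divided into those higher in heart and those whose order depended on the scaling. The mir-23, 24 and 27 clusters took 21.9 and 22.6% of the heart reads and 9.14 and 8.88% of the brain reads. Of their arms, 7 of 9 were higher in heart (16.8% over all arms tested). These clusters, known for their effect on vessel growth, exist as 2 copies, with Mir23a and Mir24-2 on chromosome 19 and Mir23b and Mir24-1 on chromosome 17. Mir-23a-3p had 7750 and 9150 RPM in brain and 44906 and 45365 RPM in heart (-3.64 ± 0.33). Mir-23b-3p, which has the same seed and differs from miR-23a-3p by U19A, had 15834 and 13153 RPM in brain and 29026 and 30014 RPM in heart (-2.27 ± 0.30). In brain mir-23b-3p was the more abundant of the pair and in heart mir-23a-3p was. Mir-27a-3p had 398 and 554 RPM in brain and 2176 and 3589 RPM in heart (-3.81 ± 0.46). The 3p arms of mir-24, shared by both clusters, had 32818 and 32179 RPM in brain and 68196 and 70395 RPM in heart for mir-24-2-3p (-2.33 ± 0.27), and mir-24-1-3p differed from it by at most 2 RPM.

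The mir-30 family, which is abundant in muscle and restrains connective tissue growth factor, took 10.9 and 9.94% of the heart reads and 4.31 and 3.44% of the brain reads. Of its 10 arms tested 6 were higher in heart (16.8% over all arms tested), and these were the 5p arms of all 6 hairpins. Mir-30a-5p had 6763 and 4686 RPM in brain and 22835 and 19447 RPM in heart (-3.13 ± 0.46), and mir-30d-5p had 7079 and 7134 RPM against 18480 and 17746 RPM (-2.59 ± 0.39). Each heart library exceeded each brain library for these arms.

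The mir-29 family, which targets collagens, was the reverse by share, and by test it depended on the scaling. It took 17.8 and 20.9% of the brain reads and 5.36 and 7.9% of the heart reads, and none of its 8 arms was called under all 4 scalings. Mir-29a-3p had 110994 and 127769 RPM in brain and 35129 and 48187 RPM in heart, a pooled ratio of 2.75. With total reads its log2 fold change was 1.52 ± 0.27 (edgeR, adjusted p = 0.000159). It was 1.3 with the outlier-corrected mean (edgeR, adjusted p = 0.000812) and 0.98 with RLE factors (edgeR, adjusted p = 0.0112). Only with TMM was it not called (0.28 ± 0.32, edgeR, adjusted p = 0.44). Mir-29c-3p had 40751 and 49181 RPM in brain and 9904 and 24494 RPM in heart, and the heart libraries of the strains differed by more than 2-fold. In the mir-103 and mir-107 family, mir-103-1-3p showed the same dependence and was called higher in brain under every scaling but TMM. Mir-107-3p was called only with TMM, as higher in heart (-0.90 ± 0.38, edgeR, adjusted p = 0.0444). The rarer mir-103-1-5p was called higher in brain under all 4 scalings. Mir-103-1-3p, within a family placed in the pantothenate kinase genes, had 34532 and 22851 RPM in brain and 9759 and 10829 RPM in heart, while mir-107-3p, with the same seed, had 9616 and 8807 RPM in brain and 6822 and 7885 RPM in heart.

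Another set of abundant arms had near equal RPM in the 2 tissues. Mir-191-5p had 19551 and 17747 RPM in brain and 19442 and 18318 RPM in heart. Let-7f-1-5p had 7858 and 6582 RPM in brain and 7340 and 7410 RPM in heart. Mir-125a-5p had 43154 and 25680 RPM in brain and 39759 and 32278 RPM in heart, and mir-100-5p had 5667 and 4648 RPM against 5656 and 4903 RPM. For these 4 arms the brain and heart values overlapped. With total reads their log2 fold changes were between -0.07 and -0.02, and with TMM between -1.33 and -1.25, where each was called higher in heart. The mir-99, mir-100 and mir-125 list as a whole took 11.5 and 11.5% of the brain reads and 11.8 and 9.74% of the heart reads.

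A like level was defined by an interval, not by a missed p: the 95% interval of the log2 fold change had to lie between -1 and 1, with at least 100 reads in each library. Only 96 of the 392 arms tested had the reads to qualify. With TMM 3 of the 392 met it (0.765%), namely mir-29a-3p (-0.39 to 0.96) and the paralogues mir-103-1-3p and mir-103-2-3p (-0.45 to 0.86), which are not separate measurements. With total reads 9 arms met it, among them mir-191-5p (-0.61 to 0.57), mir-125a-5p (-0.71 to 0.56), mir-26a-5p (-0.76 to 0.61) and let-7f-1-5p (-0.79 to 0.75). No arm met it under both.

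Mir-378, mir-322 and mir-21 also gave abundant heart-high arms. Mir-378-3p, whose hairpin lies within the span of the metabolic coactivator gene Ppargc1b, had 2828 and 848 RPM in brain and 9025 and 27767 RPM in heart (-4.79 ± 0.73). Mir-322-5p had 390 and 379 RPM in brain and 2345 and 1848 RPM in heart (-3.64 ± 0.58). Mir-21-5p had 3937 and 331 RPM in brain and 4343 and 8489 RPM in heart (-3.03 ± 0.71, edgeR, adjusted p = 0.0015), and the BN-Lx brain lay close to the BN-Lx heart. This call was lost with the brain and heart libraries fitted alone (-3.13, edgeR, adjusted p = 0.102), and over its alternatives the log2 fold change ranged from -5.43 (without the BN-Lx brain) to -1.69 (total reads). Mir-21-5p and mir-322-5p were singled out after their values were seen.

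Mir-378-5p was called higher in heart on the strength of 1 library. It had 334 and 44.2 RPM in brain, 14599 RPM in BN-Lx heart and 33.3 RPM in SHR heart. Without the BN-Lx heart library its log2 fold change was 0.53 (edgeR, adjusted p = 0.71, the highest over its 14 alternatives, where the lowest was 2.99e-06), and the call was also lost without the SHR brain (adjusted p = 0.0644) and with the brain and heart libraries fitted alone (adjusted p = 0.225). The 5p arm made up 61.8% of the hairpin's reads in BN-Lx heart (95% exact interval 60.8 to 62.8) but 0.12% in SHR heart, and 10.6 and 4.95% in brain.

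Arm shares were compared for 92 hairpins whose arms added together had at least 100 reads in each library. Hairpins with few reads from 1 arm in all 4 libraries could hardly differ between the tissues. Of the 92, mir-7a-1 alone had a gap of more than 20 points between the tissues in the share of its arms. Its 5p arm, the functional miR-7, made up 38.1 (36.5 to 39.6) and 43.5% (41.3 to 45.7) of the hairpin's reads in brain and 7.94 (4.7 to 12.4) and 8.75% (5.89 to 12.1) in heart. In RPM the 5p arm had 1366 and 991 in brain and 42.1 and 48.4 in heart (3.52 ± 0.60, edgeR, adjusted p = 9.95e-05), whereas the 3p arm had 2224 and 1287 in brain and 488 and 504 in heart (0.53 ± 0.46, not called). The 3p arm was the more abundant in all 4 libraries. The mature 5p sequence is shared with mir-7a-2 and its reads were divided between both. Mir-126, for comparison, kept its 5p share at 12 and 14.3% in brain and 11.7 and 12.8% in heart.

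Read starts were alike in the tissues for most abundant arms. Of 96 arms with at least 100 reads in each library, 94 had the same main start in all 4 libraries. The main start differed between the tissues for mir-505-3p. It began at hairpin base 42 in 55.5 and 54.3% of the brain reads and in 27.8 and 30.5% of the heart reads, and at base 43 in 37.9 and 38.3% against 61.2 and 57.9%. The 95% exact intervals of the brain and heart libraries did not overlap at either start, and cover counting error only. The most frequent sequence of the SHR libraries is given from the study's list of miRNA sequences, with the seed in capitals, to show how the extra base moves it.
miR-505-3p in SHR brain: cGTCAACActtgctggtttcct
miR-505-3p in SHR heart: gTCAACACttgctggtttcctct
Mir-455-3p had the next largest gap, with 80.1 and 79.6% of brain reads and 62.9 and 70.9% of heart reads at base 48, and the same main start in all 4 libraries.

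**Figure D5:**
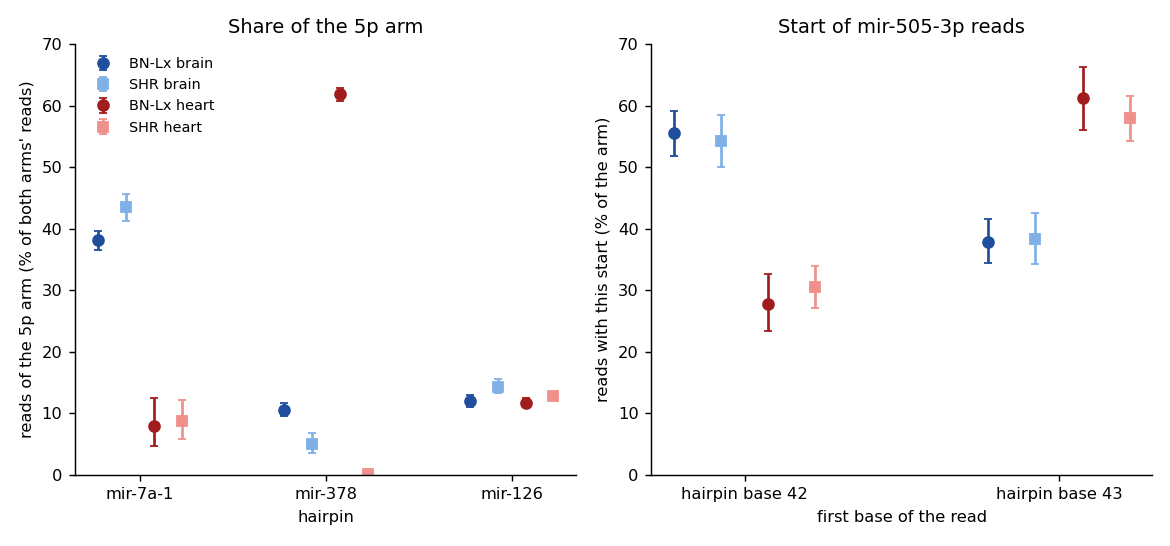
Left, share of reads from the 5p arm (y axis, percent) of 3 hairpins; right, share of mir-505-3p reads (y axis, percent) that begin at hairpin base 42 or 43, each in the 4 libraries with 95% exact intervals for counting error. Mir-7a-1 and mir-505-3p separate brain from heart in both strains, mir-126 does not, and the mir-378 value of BN-Lx heart stands apart from the other 3 libraries.

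The called arms were also set among the 6 tissues. They are part of the 392 arms tested and were chosen for 1 tissue above the other, so higher shares among them were built in. Of the 150 brain-high arms, 133 (88.7%) had both brain libraries above all 10 libraries of the other tissues, against 182 of 392 arms tested (46.4%). Of the 66 heart-high arms, 20 (30.3%) had both heart libraries on top, against 21 of 392 (5.36%), and for 23 (34.8%, against 29 of 392, 7.4%) both brain libraries lay below all other tissues. Mir-143-3p, mir-145-5p and mir-214-3p were of both kinds. Mir-1-3p reached at most 57.7 RPM in the other 4 tissues (BN-Lx liver) and mir-208-5p at most 4.27 RPM. Mir-124-1-3p reached 1190 RPM in BN-Lx testis and was lowest in BN-Lx spleen at 4.07 RPM, so the 76.8 and 8.46 RPM of the hearts lay within the range of the other tissues.

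Markers of tissues that should be absent from both organs were mostly low, apart from mir-192-5p and, in BN-Lx brain, mir-200 hairpins. Liver mir-122-5p had 220 and 188 RPM in brain and 71.9 and 98.3 RPM in heart, against 322392 RPM in SHR liver. Of 7 arms tested from the epithelium and liver list, none was called under all 4 scalings. Over all arms tested, 38.3% were called higher in brain and 16.8% higher in heart. The list's most abundant arm in all 4 libraries was mir-192-5p, with 2198 and 1392 RPM in brain and 1653 and 1454 RPM in heart. It was called higher in heart with TMM (-1.07 ± 0.26, edgeR, adjusted p = 0.00213) but not with total reads (0.18 ± 0.26). Mir-200a-3p, an epithelial miRNA, had 1438 RPM in BN-Lx brain and 40.7 RPM in SHR brain, with 62 and 77.7 RPM in heart. Mir-200b-3p (427 and 4.65 RPM in brain) and mir-429-5p (105 and 0) were also far higher in BN-Lx brain, while mir-375-3p was not (5.63 and 13.95). The list took 0.499% of the BN-Lx brain reads and 0.193% of the SHR brain reads, and the cause was not tested. Of 4 arms tested from the testis list, 2 were higher in brain (38.3% over all arms tested) and the other 2 did not pass. So few arms do not set the list apart from that share. The 2 called arms were mir-34c-5p and mir-34b-5p, which ciliated epithelia also make. Mir-34c-5p had 948 and 1748 RPM in brain and 84.3 and 105 RPM in heart.

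Between the strains the same tissue differed less than the 2 tissues did. Over the 96 arms with at least 100 reads in each library, the median absolute log2 ratio of BN-Lx to SHR was 0.35 in brain, where 8 arms differed by more than 2-fold, and 0.24 in heart, where 12 did. Between brain and heart the median was 1.30 and 62 arms differed by more than 2-fold. Among these 96 arms the largest strain difference in brain was that of mir-21-5p, with a log2 ratio of 3.57. In heart it was that of mir-34a-5p, with 501 RPM in BN-Lx and 5104 RPM in SHR. Arms below 100 reads in any library were left out, among them mir-200a-3p, with 1438 and 40.7 RPM in brain. With 1 rat per strain these differences have no replicate.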

How the data were processed

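The authors trimmed SOLiD reads and mapped them with SHRiMP to miRNA hairpins, keeping perfect matches. The deposited values are expected counts: reads per start and end on a hairpin, divided evenly over matching hairpins. Reads of the 12 six-tissue libraries were summed per hairpin and arm (the side of the hairpin's middle, or of a gap for 54 of 694 arms), and rounded. edgeR 4.0.16 (quasi-likelihood, TMM, R 4.3.3, limma 3.58.1) was fitted with tissue and strain as terms, and brain was contrasted with heart over the 392 arms kept by filterByExpr, two-sided, with Benjamini-Hochberg adjustment at 0.05. The spread comes from 5 residual degrees of freedom. Intervals and the floor of 3 reads cover counting error only. Alternatives were DESeq2 1.42.0, other scalings, filters, sample sets and depth. Requiring a call under all 4 scalings was chosen after seeing the data. The fit was tested on simulated data. Strain is the pairing, since both tissues came from 1 rat; deviations of the strains in brain and heart correlated at r = -0.077 over 392 arms. Named were the main arms of the listed hairpins, the 5 most abundant arms per tissue, the 10 largest called changes per direction with at least 100 reads, and arms of like level. Members and lists were chosen with earlier results of these data known. Further liver libraries and the piRNA clusters were not used here.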

Additional observations from a re-analysis of the deposited data

Results flagged for a closer look

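Let-7d-5p and mir-195-5p ran in opposite directions in the 2 strains with TMM, with the outlier-corrected mean and with total reads. RLE factors were not checked for this. Let-7d-5p had 4373 RPM in brain and 763 RPM in heart of BN-Lx, a log2 ratio of 2.52, but 3203 and 3453 RPM in SHR, a log2 ratio of -0.11. Mir-195-5p had 2003 RPM in brain and 503 RPM in heart of BN-Lx, a log2 ratio of 1.99, but 776 and 1559 RPM in SHR, a log2 ratio of -1.01. With 1 library per strain and tissue the difference between the strains was not tested.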

How the results depend on the processing

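Of the 1017 alternative fits of the 68 arms given with a fold change, 917 kept direction and call, 62 lost the call, 27 gained one and 11 changed sign, and 49 arms kept both in every alternative. With strain as a term, the p-values of the main fit measure how the difference between the 2 rats varied among the 6 tissues. They do not measure the spread between rats of a strain. The shallowest library sets the lowest level seen in heart. Arms called higher in brain and in heart with TMM were 150 and 109. They were 181 and 80 with RLE factors, 194 and 71 with the outlier-corrected mean, 204 and 66 with total reads, and 150 and 66 under all 4. DESeq2 called 136 and 81. Leaving out each library in turn gave 104 to 115 in brain and 91 to 96 in heart. The pairing by rat changed little: with no replicate block the calls were 164 and 112, with 3 arms of like level. The pair of tissues deviated at r = -0.077, so the strain term rests on the design. Arms at least 5-fold higher in heart (42) became 88 at 2-fold, 25 at 10-fold and 80 in SHR alone. Arms of like level (3) became 0 within -0.5 and 0.5, 7 with the outlier-corrected mean, 9 with total reads, 1 with the 4 libraries alone, 1 with paralogues summed, and 0 to 3 without each library. The sign changed for mir-378-5p (-7.48 to 0.53 over the libraries left out, the latter without the BN-Lx heart), mir-29a-3p (-0.12 to 0.63, the former without the SHR brain and without the BN-Lx heart), mir-29c-3p (-0.04 with 100 reads required, and -0.55 to 1.05 over the libraries left out, with -0.55 without the BN-Lx heart and -0.21 without the SHR brain), mir-103-1-3p (-0.10 to 0.39, the former without the BN-Lx heart), mir-107-3p (0.13 and 0.34) and mir-125b-1-5p (0.16 and 0.37), the last 2 with the outlier-corrected mean and with total reads. Beyond the scaling and the library left out, the cause was not tested.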
